A study of Mus musculus with 9 samples.

Results

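The 8 genes described here encode the pore subunits Kv4.2 (Kcnd2) and Kv4.3 (Kcnd3) of the Kv4 potassium channel and the proteins that join them, namely the KChIPs (Kcnip1, Kcnip2, Kcnip3 and Kcnip4) and the DPP-like proteins (Dpp6 and Dpp10). They were chosen by symbol, whatever their values, and all 8 were found among the 56953 genes of the deposited count table. RNA-sequencing counts came from cerebellar tissue enriched with Purkinje cells by laser microdissection, taken from female mice aged 1.5 months. WT mice carried 0, KI/+ mice 1 and KI/KI mice 2 copies of the Kcnd3 F227del allele, a germline knock-in that every cell carries, with 3 mice and 3 libraries per genotype. The libraries held between 1915339 and 4032357 counts, with medians of 2386344 (WT), 2718017 (KI/+) and 3869190 (KI/KI). Every value below is a count of reads assigned to a whole gene, so that transcripts of the mutant and the normal allele of Kcnd3 were counted together.

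Kv4 channels open at membrane potentials below the spike threshold and inactivate quickly, and the A-type potassium current they carry delays firing and dampens signals that travel back into dendrites. A channel is a tetramer of Kv4 subunits. KChIPs are calcium-binding proteins that grip the cytoplasmic N-terminus of the subunits, bring the channel to the cell surface and slow its inactivation. Dpp6 and Dpp10 are single-pass membrane proteins related to dipeptidyl peptidases but without enzymatic activity, and they speed up the opening and the inactivation of the channel. In the cerebellum, Kv4.3 is known as a subunit of Purkinje cells, granule cells and interneurons and Kv4.2 as a subunit of granule cells. Mutations of the human KCND3 gene cause spinocerebellar ataxia type 19/22.

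The sequences around the deleted codon are given because they show what the allele removes and how alike the Kv4 genes are at this place. The phenylalanine codon that F227del removes, in capitals, lies in exon 2 of the 8 exons of the longest Kcnd3 coding transcript, within chr3:105459464-105459526 on the plus strand of GRCm38. The matching codons were placed by alignment of the translated coding sequences. They are codon 230 of Kcnd2, in exon 1 within chr6:21216956-21217018 on the plus strand, and codon 232 of Kcnd1, in exon 1 within chrX:7824506-7824568 on the plus strand. Each range covers the whole sequence shown. The sequences run 5′ to 3′ in GENCODE vM21 transcripts, each with the 10 codons on either side.
Kcnd3: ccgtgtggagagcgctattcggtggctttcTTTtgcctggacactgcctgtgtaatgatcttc
Kcnd2: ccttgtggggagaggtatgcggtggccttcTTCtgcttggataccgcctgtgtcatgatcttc
Kcnd1: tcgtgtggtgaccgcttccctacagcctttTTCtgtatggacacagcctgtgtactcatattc

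Of these 63 bases, 52 (82.5%) were the same in Kcnd2 and Kcnd3 and 44 (69.8%) in Kcnd1 and Kcnd3. Over their whole transcripts, the longest run of bases shared by Kcnd2 and Kcnd3 was 23 bases, that shared by any pair of KChIP genes was between 17 and 19 bases, and that shared by Dpp6 and Dpp10 was 20 bases.

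The reading of these counts rests on whether the reads were assigned to the genes they came from. The labels name the assemblies GRCm38 and mm10 without a role, and the annotation used for counting is not given in the sources used here. All 8 genes were listed with a later version of their identifier than in GENCODE vM21, the GRCm38 annotation used here for symbols, positions and lengths. So were 99.9% of all identifiers shared with that release. As a check, 407 genes of the ribosome, the proteasome, the respiratory chain and other machinery common to cells were examined. Of these, 156 (38.3%) averaged 10 or more counts in a library, and 73 were at 0 throughout. The farthest of the 10 such genes nearest to each of the 8 lay between 22.5 Mb (Kcnip3) and 88.1 Mb (Dpp6) away. They therefore sample the chromosome rather than the place of the gene. Among these 10, those that averaged 10 or more counts numbered 7 for Kcnd2, 6 for Kcnip1, 6 for Kcnip2, 4 for Kcnd3, 3 for Kcnip3, and 2 for each of Kcnip4, Dpp6 and Dpp10. The part of this in the low values of Kcnd3, Kcnip4, Dpp6 and Dpp10 was not tested, and each level below is that of the counts listed under the gene's name.

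The markers of the tissue were uneven in the same way. Among the 12 Purkinje cell markers, Car8 (232481 counts over the 9 libraries), Calb1 (149596) and Itpr1 (69619) were abundant, whereas Pcp2 had 12 counts, Pcp4 had 4 counts, and Ppp1r17 and Slc1a6 were at 0. The summed level of the Purkinje list was 15286 to 17817 CPM (counts scaled to library size) for WT, 17711 to 20119 for KI/+ and 17405 to 19626 for KI/KI libraries. The granule cell list summed to between 641.3 and 895.9 CPM over all libraries with Cbln3 at 0, and the interneuron list to between 254.8 and 313.5 CPM with Gad2 and Kit at 0. The oligodendrocyte list summed to between 1802 and 2743 CPM, and the microglial list to between 9.45 and 18.6 CPM. The list of Bergmann glia and astrocytes summed to 895.5 to 1054 CPM for WT, 905.1 to 1024 for KI/+ and 1006 to 1099 for KI/KI libraries. Gdf10, Hopx and S100b of that list were at 0. Of all these lists, Slc6a11, the GABA transporter GAT-3 of astrocytes, was the only marker called between genotypes. Its log2 fold change was -1.52 in KI/KI against WT mice (FDR 0.00117 from edgeR) and -1.29 in KI/KI against KI/+ mice (FDR 0.00688). The other tested members of its list were not called. In KI/KI against WT, Gfap (21537 counts) stood at 0.19, Slc1a3 (2835 counts) at 0.13 and Aldh1l1 (150 counts) at -0.20 on the log2 scale. In bulk tissue, fewer cells of a type and less RNA per cell cannot be told apart.

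Per kilobase of exon, Kcnd2 had the highest level of the 8 genes, with a mean of 322.2 CPM per kb over the 9 libraries, and it supplied 87.6% of all their counts. Kcnip3 followed at 32.5 CPM per kb, 9.91-fold lower, then Kcnip2 at 14.3 and Kcnip1 at 8.66. Down to this point the ranges of neighbouring genes over the 9 libraries did not overlap. Kcnip4, at 1.62 CPM per kb, lay below Kcnip1 in every library. The ranges of Kcnip4 and Dpp6 (0.738) overlapped, as did those of Dpp6 and Kcnd3 (0.427), although Kcnip4 was above Dpp6 in 9 of 9 libraries and Dpp6 above Kcnd3 in 8. Dpp10 was the lowest, at 0.0878 CPM per kb. Lengths were those of GENCODE vM21, which may differ from the gene models the reads were counted on.

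**Figure D1:**
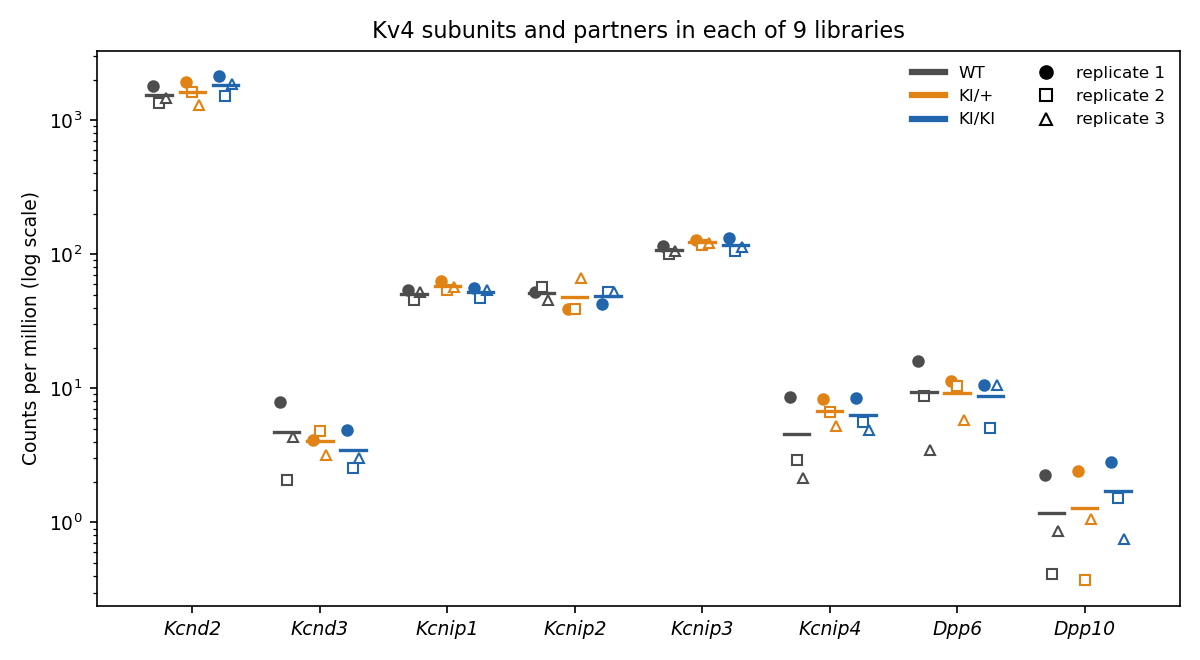
Level of each of the 8 genes in the 9 libraries, in CPM after TMM normalization on a log axis, not divided by length, with colours for WT, KI/+ and KI/KI, symbols for replicates 1 to 3 and a bar at the mean of each genotype. Kcnd2 lies between 1302 and 2129 CPM in every library, whereas Kcnd3, Kcnip4, Dpp6 and Dpp10 lie at or below 16.1 CPM, and the libraries of the genotypes overlap for 7 of the 8 genes in every pair of genotypes.

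Kcnd3 (ENSMUSG00000040896.17), the mutated gene, spans chr3:105452330-105674002 on the plus strand of GRCm38, with 9587 bases of exon. It had 21, 5 and 10 counts in the 3 WT libraries, 12, 13 and 6 in the KI/+ libraries and 19, 10 and 8 in the KI/KI libraries, 104 counts in all. Scaled to library size the WT libraries stood at 7.86, 2.08 and 4.32 CPM, the KI/+ libraries at 4.14, 4.81 and 3.16 CPM, and the KI/KI libraries at 4.87, 2.55 and 3.03 CPM. WT replicate 1 was the highest of all 9 libraries and WT replicate 2 the lowest, so that the WT libraries enclosed all others. Pooled by genotype, the exact Poisson 95% intervals were 3.41 to 6.74 CPM (WT), 2.81 to 5.87 (KI/+) and 2.49 to 4.87 (KI/KI), which overlapped one another. The SD between the mice of a genotype was 2.92 CPM for WT, 0.829 for KI/+ and 1.23 for KI/KI (n = 3 each). These intervals, like all those given for counts, cover counting error only.

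Between KI/KI and WT mice Kcnd3 differed by -0.45 on the log2 scale, with a 95% interval from -1.36 to 0.46 and an FDR of 0.788 from edgeR. As a ratio, the interval ran from 0.389 to 1.37. The value was -0.23 in KI/+ against WT (interval -1.17 to 0.71), -0.22 in KI/KI against KI/+ (interval -1.16 to 0.72) and -0.45 for the trend over mutant alleles, expressed between 0 and 2 alleles (interval -1.33 to 0.43). No difference in Kcnd3 was detectable at this depth. A single library set the sign, since without WT replicate 1 the values against WT became 0.14 for KI/KI and 0.37 for KI/+ mice. The region around the gene had few counts as well. The neighbouring gene on the upper side, Ddx20, had 39 counts, 4930564D02Rik on the lower side had 4, and the antisense gene that overlaps Kcnd3 had 0. Such neighbours were not particular to Kcnd3. Both neighbours of Kcnip1 had 0 counts, those of Kcnip3 86 and 13, those of Dpp6 0 and 2 and those of Dpp10 27 and 0. Kcnd2, Kcnip2 and Kcnip4 each had a neighbour with more, at 2175, 11185 and 560 counts.

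Kcnd2 (ENSMUSG00000060882.6), the other pore subunit, spans chr6:21215503-21729805 on the plus strand, with 5152 bases of exon, and ranked 51 of the 10842 genes tested by CPM. Its counts were 4807, 3242 and 3404 in WT, 5550, 4400 and 2472 in KI/+ and 8301, 5873 and 4898 in KI/KI libraries. The levels were 1800, 1348 and 1470 CPM for WT, 1916, 1627 and 1302 CPM for KI/+ and 2129, 1497 and 1852 CPM for KI/KI mice. Replicate 1 was the highest library of each genotype, and the 3 genotypes overlapped. Averaged by genotype, Kcnd2 was at 1539 ± 234 CPM (WT), 1615 ± 308 CPM (KI/+) and 1826 ± 317 CPM (KI/KI; SD, n = 3 each). Counting error did not limit these values, as the spread within genotypes was 17.3% of the mean and counting alone gives 1.53%.

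Kcnd2 stood 0.25 higher on the log2 scale in KI/KI than in WT mice, a difference that did not pass (standard error 0.13, 95% interval -0.03 to 0.52, FDR 0.569 from edgeR). Its interval as a ratio was 0.979 to 1.44, and the fitted ratio of 1.19 lay under the fold-change of 1.3 required of a call. It was 0.18 on the log2 scale in KI/KI against KI/+ (interval -0.10 to 0.45), 0.07 in KI/+ against WT (interval -0.21 to 0.35) and 0.25 for the trend (interval -0.02 to 0.52). The direction in KI/KI against WT stayed when each library was left out, with log2 fold changes from 0.12 to 0.37. Relative to the summed Purkinje list, Kcnd2 stood at 9.50 ± 0.674% for WT, 8.78 ± 2.13% for KI/+ and 9.65 ± 1.13% for KI/KI mice (SD, n = 3 each). The most abundant genes of that list were themselves higher in KI/KI than in WT mice. Car8 stood at 0.25 (FDR 0.174 from edgeR), Calb1 at 0.23 (FDR 0.197) and Itpr1 at 0.10 (FDR 0.781) on the log2 scale, all under a fold-change of 1.3.

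Of the counts of both pore subunits together, Kcnd3 made up 0.294 ± 0.140% for WT, 0.251 ± 0.0401% for KI/+ and 0.187 ± 0.0359% for KI/KI mice (SD, n = 3 each). Over all libraries 104 of 43051 counts were Kcnd3, a share of 0.242% (95% exact Clopper-Pearson interval 0.197% to 0.293%). In single libraries between 229 and 648 counts of Kcnd2 were found per count of Kcnd3. The share ranged from 0.154% in WT replicate 2 to 0.435% in WT replicate 1, and the libraries of the genotypes overlapped. Because Kcnd3 has the longer exons, the ratio per kilobase is larger than that of the counts.

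Kcnip3 (ENSMUSG00000079056.13), also known as calsenilin or DREAM and described as a transcriptional repressor as well as a channel subunit, had the most counts of the KChIP genes. It lies at chr2:127456498-127522094 on the minus strand. Its libraries gave 309, 242 and 243 counts in WT, 371, 319 and 229 in KI/+ and 513, 413 and 298 in KI/KI mice. The corresponding levels were 116, 101 and 105 CPM for WT, 128, 118 and 121 CPM for KI/+ and 132, 105 and 113 CPM for KI/KI mice. All KI/+ libraries were above all WT libraries, and this was the only pair of genotypes without overlap for any of the 8 genes. Over all genes tested, 9.35% had non-overlapping KI/+ and WT libraries, 4.7% with KI/+ higher. In the other comparisons, where 0 of the 8 genes were without overlap, 15.9% of all genes were so in KI/KI against WT and 14.4% in KI/KI against KI/+. On the log2 scale, Kcnip3 was at 0.19 in KI/+ against WT (95% interval -0.02 to 0.40, FDR 0.998 from edgeR), 0.12 in KI/KI against WT (interval -0.08 to 0.32) and -0.07 in KI/KI against KI/+ (interval -0.27 to 0.13). The difference did not grow with the number of mutant alleles, and the trend was 0.12.

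Kcnip2 (ENSMUSG00000025221.17), the KChIP of the heart's transient outward current, lies at chr19:45791839-45816061 on the minus strand. It had 139, 138 and 105 counts in WT, 113, 105 and 126 in KI/+ and 167, 206 and 138 in KI/KI libraries. The levels were 52.0, 57.4 and 45.3 CPM for WT, 39.0, 38.8 and 66.3 CPM for KI/+ and 42.8, 52.5 and 52.2 CPM for KI/KI mice. KI/+ held both the highest library and the lowest. Its log2 fold change was -0.08 in KI/KI against WT (95% interval -0.43 to 0.28, FDR 0.929 from edgeR) and -0.14 in KI/+ against WT (interval -0.51 to 0.23). In the 6 libraries labelled L1, which are replicates 1 and 2 of each genotype, the latter value was -0.49 (FDR 1.00).

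Kcnip1 (ENSMUSG00000053519.18), known from interneurons of several brain regions, lies at chr11:33629339-33993152 on the minus strand. Its counts were 145, 109 and 120 in WT, 183, 146 and 109 in KI/+ and 219, 184 and 143 in KI/KI libraries. The levels were 54.3, 45.3 and 51.8 CPM for WT, 63.2, 54.0 and 57.4 CPM for KI/+ and 56.2, 46.9 and 54.1 CPM for KI/KI mice. The spread of Kcnip1 within genotypes, 8.84% of the mean, was close to the 8.36% that counting alone gives. Fitted differences on the log2 scale were 0.21 in KI/+ against WT (95% interval -0.05 to 0.46), 0.05 in KI/KI against WT (interval -0.20 to 0.30) and -0.16 in KI/KI against KI/+ (interval -0.40 to 0.09), with the smallest FDR 0.723 from edgeR.

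Kcnip4 (ENSMUSG00000029088.17), of which an isoform can remove fast inactivation, lies at chr5:48389502-49524907 on the minus strand. It had 155 counts in all, with 23, 7 and 5 in WT, 24, 18 and 10 in KI/+ and 33, 22 and 13 in KI/KI libraries. The levels were 8.61, 2.91 and 2.16 CPM for WT, 8.29, 6.65 and 5.27 CPM for KI/+ and 8.46, 5.61 and 4.92 CPM for KI/KI mice. WT replicates 2 and 3 were the lowest libraries of all and WT replicate 1 the highest, so that the genotypes overlapped through WT replicate 1. Its log2 fold change was 0.45 in KI/KI against WT (95% interval -0.42 to 1.32, FDR 0.776 from edgeR) and 0.55 in KI/+ against WT (interval -0.35 to 1.45). Without WT replicate 1 the value in KI/KI against WT was 1.33 with an FDR of 0.191, which passes the criteria of a call. This was the only call of any of the 8 genes under any of the alternatives tried. Without the replicate 1 libraries of all 3 genotypes, it was 1.04 (FDR 0.387).

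Dpp6 (ENSMUSG00000061576.16) lies at chr5:26817203-27727505 on the plus strand. It had 43, 21 and 8 counts in WT, 33, 28 and 11 in KI/+ and 41, 20 and 28 in KI/KI libraries. The levels were 16.1, 8.73 and 3.45 CPM for WT, 11.4, 10.4 and 5.79 CPM for KI/+ and 10.5, 5.10 and 10.6 CPM for KI/KI mice. As for Kcnd3, the WT libraries enclosed all others. The fitted ratio of KI/KI to WT was 0.891 (95% interval 0.499 to 1.59, FDR 0.937 from edgeR), a log2 fold change of -0.17, which was 0.48 without WT replicate 1.

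Dpp10 (ENSMUSG00000036815.18) lies at chr1:123321471-124045559 on the minus strand. It had 38 counts in all, with 6, 1 and 2 in WT, 7, 1 and 2 in KI/+ and 11, 6 and 2 in KI/KI libraries, and was the only one of the 8 genes below the expression filter. The levels were 2.25, 0.416 and 0.864 CPM for WT, 2.42, 0.370 and 1.05 CPM for KI/+ and 2.82, 1.53 and 0.756 CPM for KI/KI mice. Of the 9 libraries, 5 had 3 counts or fewer, the limit that a count of 0 would allow. In a fit without the filter, over 30626 genes, its log2 fold change was 0.55 in KI/KI against WT, with an interval from -0.75 to 1.85.

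Across the 8 genes, 7 passed the expression filter, and 0 were called, with a fold-change above 1.3 and an FDR below 0.2 as the criteria, in any of the 3 comparisons or in the trend. The background of calls among the 10842 genes tested was 1.33% in KI/KI against WT, 0.387% in KI/KI against KI/+, 0% in KI/+ against WT and 1.18% in the trend. At an unadjusted p under 0.05 in this fit of all libraries, 0 of the 7 genes tested passed in any comparison, against 10% of all genes in KI/KI against WT, 9.24% in KI/KI against KI/+, 4.23% in KI/+ against WT and 9.71% in the trend. Dpp10, fitted without the filter, did not pass that limit either. Under some other settings Kcnd2, Kcnip2, Kcnip3 and Kcnip4 passed that limit in at least 1 comparison, and in edgeR without the filter Kcnd2 had an FDR of 0.0388 in KI/KI against WT, with a fold-change under 1.3. Over the settings, 562 to 1679, 483 to 1548, 159 to 937 and 597 to 1921 of all genes passed that limit, in the same order. The largest of these numbers were without the filter, over 30626 genes. DESeq2 called 41, 31, 0 and 100 genes in the same order, and none of the 8. DESeq2 gave no FDR, however, for Kcnd3, Kcnip4, Dpp6 and Dpp10 in the trend and in either comparison of KI/KI mice, nor for Kcnip1 and Kcnip2 in the latter, so that these genes could not be called there. In KI/KI against WT, 3 of the 8 values were below 0 and 5 above, and the median of the 7 genes tested was 0.05 on the log2 scale beside 0.01 for all genes tested. In KI/KI against KI/+ 5 were below 0 and 3 above, with a median of -0.09 beside 0.00. In KI/+ against WT 3 were below 0 and 5 above, with a median of 0.07 beside 0.00.

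**Figure D2:**
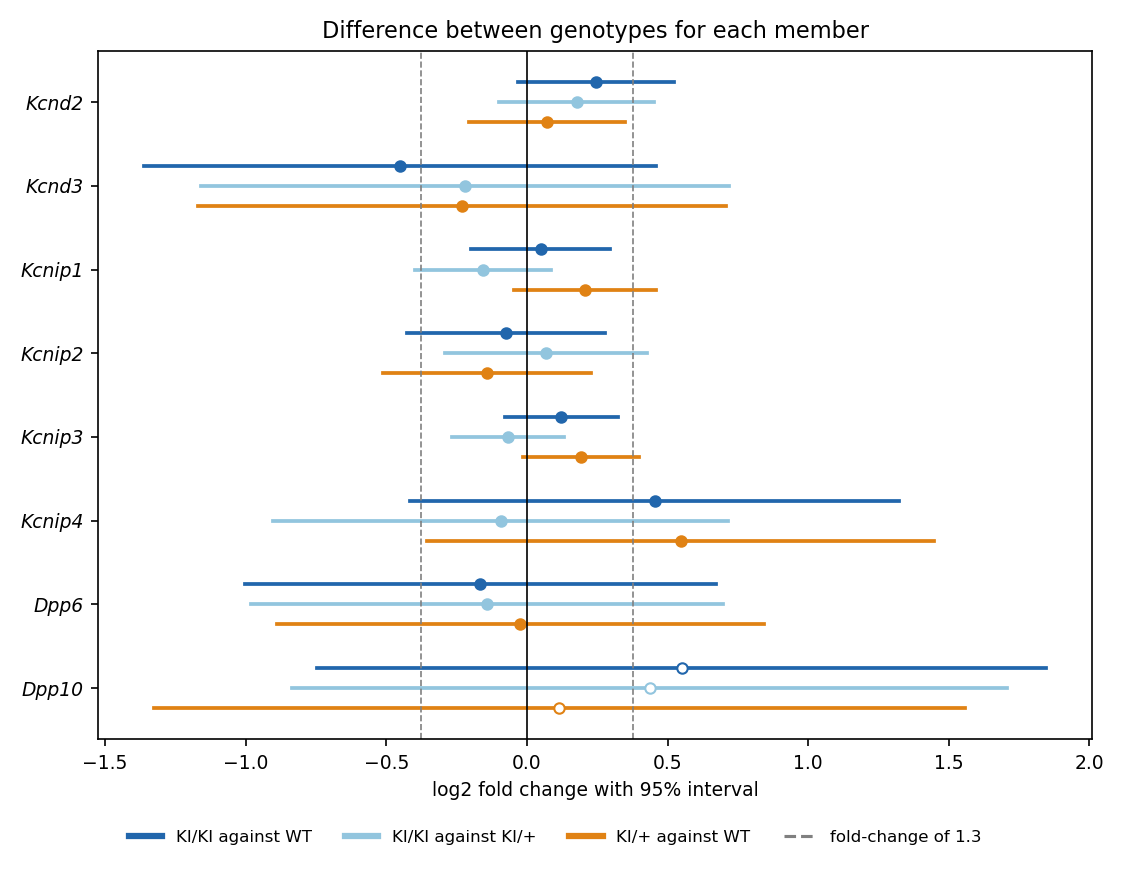
Log2 fold change of each of the 8 genes in the 3 comparisons of genotypes, as points with 95% intervals from edgeR, with dashed lines at a fold-change of 1.3 in either direction and open points for Dpp10, which was fitted without the expression filter. All 24 intervals include 0, and they are narrowest for Kcnip3 and widest for Dpp10.

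The size of change that these data could show differed between the genes. In KI/KI against WT, the half-width of the 95% interval was 0.20 for Kcnip3, 0.25 for Kcnip1, 0.28 for Kcnd2 and 0.35 for Kcnip2 on the log2 scale. For Kcnd3, Kcnip4 and Dpp6 it was 0.91, 0.87 and 0.84. Counting alone gives a spread of 32.5% of the mean for Kcnd3 within genotypes, 28.6% for Kcnip4 and 22.7% for Dpp6, beside measured spreads of 42.5%, 49.6% and 47.9%. For Kcnip3 the interval of the ratio between KI/KI and WT mice was 0.946 to 1.25, and for Kcnip1 it was 0.871 to 1.23. Neither interval reached a fold-change of 1.3, whereas those of Kcnd3, Kcnip4 and Dpp6 went beyond it on both sides.

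**Figure D3:**
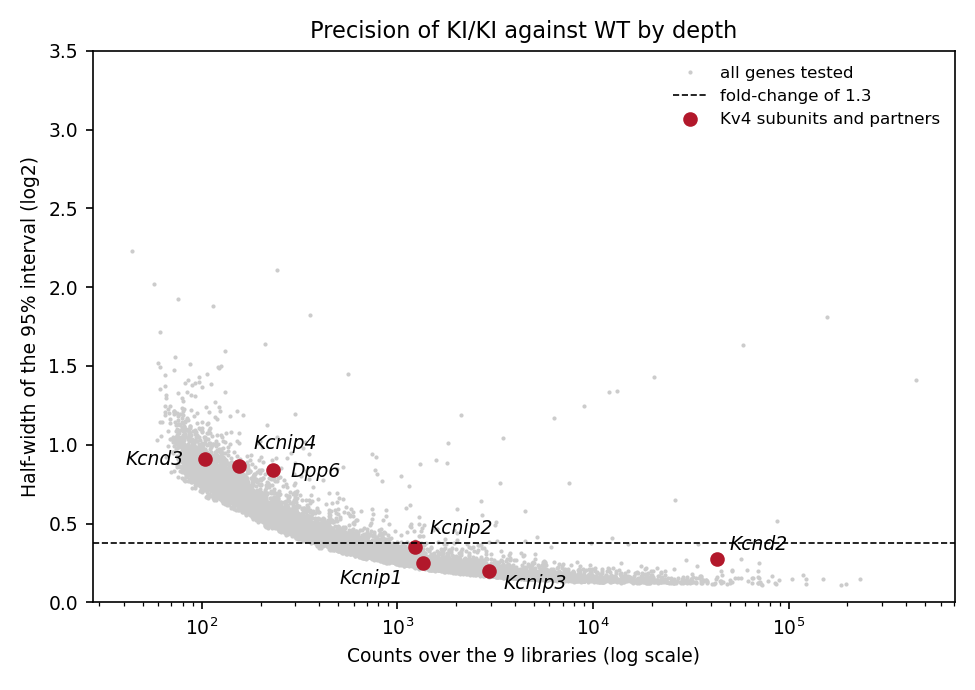
Half-width of the 95% interval of the log2 fold change in KI/KI against WT mice plotted against the counts summed over the 9 libraries on a log axis, for the 10842 genes tested in grey and the 7 of the 8 genes that passed the filter in red, with a dashed line at a fold-change of 1.3. Kcnd2, Kcnip1, Kcnip2 and Kcnip3 lie below the line, and Kcnd3, Kcnip4 and Dpp6 lie between 0.84 and 0.91, and Kcnd2 lies above most genes of its depth.

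The libraries of replicate 1 stood apart from the others in all 3 genotypes. Over all genes with enough counts, the chi-square per degree of freedom was 1.47 to 2.64 between replicate 1 libraries, 8.07 to 13.01 between a replicate 1 library and any other, and 1.29 to 7.87 between the others. Among the others, pairs that held KI/KI replicate 3 gave 4.34 to 7.87 and the remaining pairs 1.29 to 3.86, so that this library stood apart as well. Replicate 1 was the highest library in each of the 3 genotypes for 5 of the 8 genes, Kcnd2, Kcnip1, Kcnip3, Kcnip4 and Dpp10, 4 of which were tested, whereas this held for 7.61% of all genes tested. Without these 3 libraries, the log2 fold change in KI/KI against WT was 0.24 for Kcnd2 (FDR 0.324), -0.22 for Kcnd3 (FDR 0.926) and 0.07 for Kcnip3 (FDR 0.844). In the 6 libraries labelled L1 it was 0.20 for Kcnd2, -0.45 for Kcnd3 and 0.13 for Kcnip3. The part of replicate 1 in the spread of the other values was not tested.

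**Figure D4:**
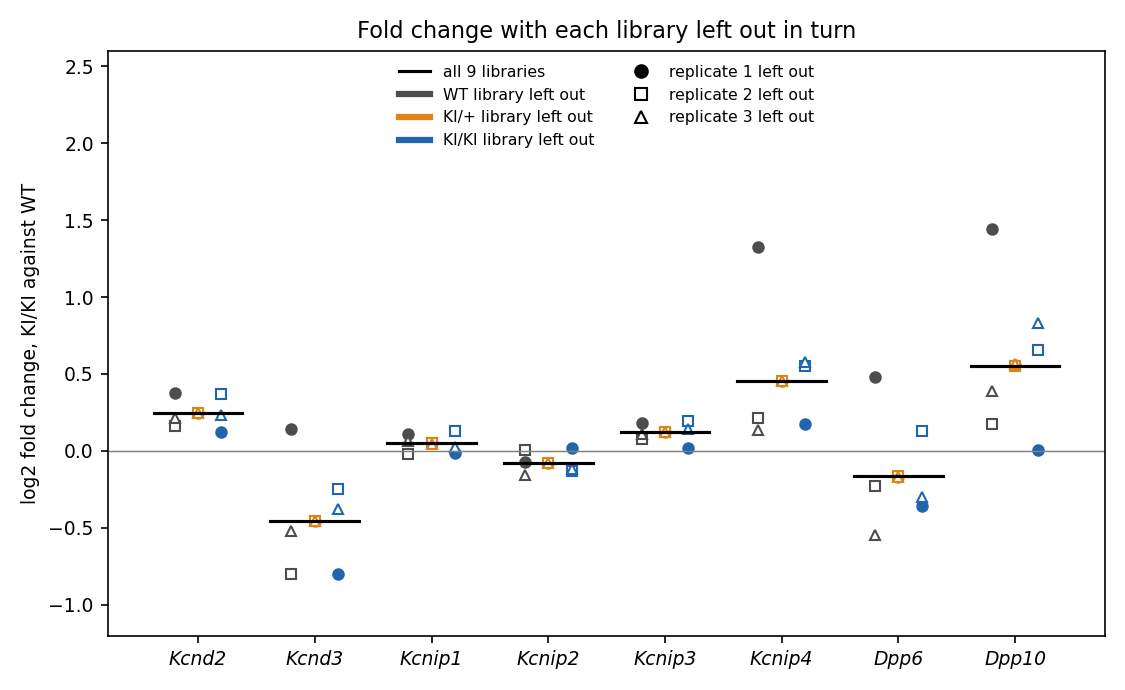
Log2 fold change of each of the 8 genes in KI/KI against WT mice with all 9 libraries, as a black bar, and with each library left out in turn, as symbols coloured by the genotype and shaped by the replicate left out. The values of Kcnd2 stay between 0.12 and 0.37 and those of Kcnip3 between 0.02 and 0.19, whereas Kcnd3, Kcnip4, Dpp6 and Dpp10 shift most when WT replicate 1 is left out, to 0.14, 1.33, 0.48 and 1.44.

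Genes annotated inside the spans of the 8 genes were chosen after their values were seen. Summed, they had more counts than the gene around them for Kcnip4, Dpp6 and Dpp10, but not for the others. Within Kcnip4 30 such genes summed to 3374 counts, 21.8 for each count of Kcnip4, and 3074 of these were of 24 genes on the strand of Kcnip4. Within Dpp10 10 genes summed to 1339 counts, 35.2 per count of Dpp10, and Gm37781 alone had 1291. Its level was 48.7 ± 5.82 CPM for WT, 51.5 ± 2.38 for KI/+ and 51.5 ± 5.28 for KI/KI mice (SD, n = 3 each). Within Kcnd2, Gm42583 had 784 counts and 5330437M03Rik 504, small beside the 42947 of Kcnd2. Within Dpp6 7 genes had 256 counts, within Kcnip1 3 had 35, within Kcnd3 1 had 0, and Kcnip2 and Kcnip3 hold no other gene. Of the 54 nested genes 23 were tested, and 0 were called in the 3 comparisons. Counts of nested genes on the strand of the gene around them cannot be told apart from unspliced reads of that gene at any strand setting. The library kit is stranded but the strand setting of the counting is not given, so that the same holds on the opposite strand.

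**Figure D5:**
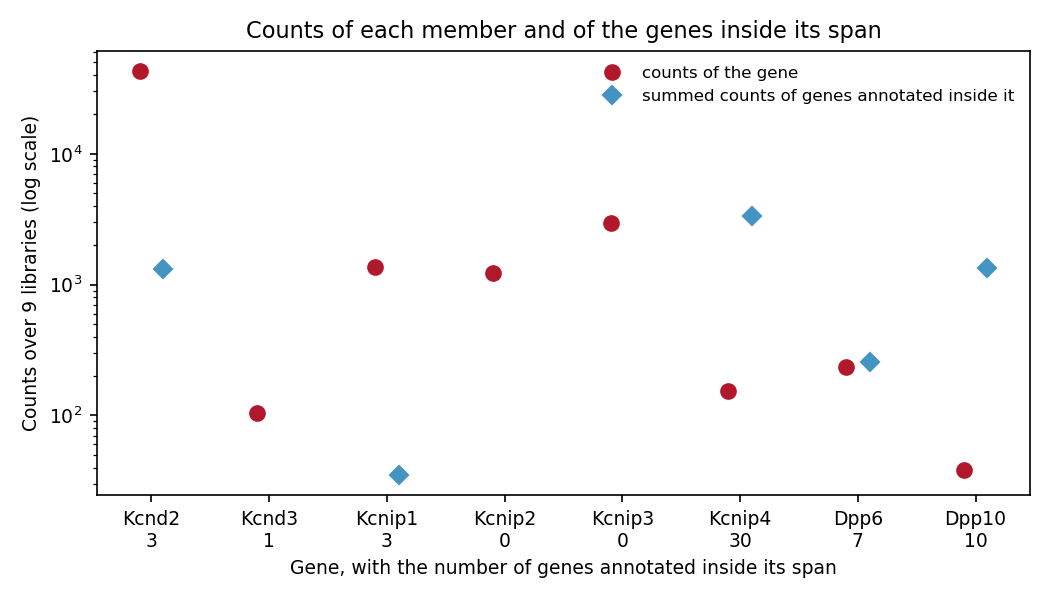
Counts over the 9 libraries of each of the 8 genes, as circles, and of all genes annotated inside its span together, as diamonds, on a log axis, with the number of nested genes under each name. The diamond lies above the circle for Kcnip4, Dpp6 and Dpp10, and genes whose nested genes sum to 0 (Kcnd3, Kcnip2 and Kcnip3) have no diamond.

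Other genes of A-type currents and Kv4 complexes gave the same count of calls. Of a list of 20, 19 were in the table and 11 passed the filter, of which 0 were called in either direction in any comparison, and their median log2 fold change in KI/KI against WT was 0.02. The most abundant were Dlg4, the scaffold PSD-95 that clusters Kv4 channels, with a mean of 484 CPM, and the T-type calcium channels Cacna1g (402 CPM) and Cacna1i (361 CPM), members of a family that supplies calcium to KChIPs. They were followed by the kinase subunit Camk2b (237 CPM). Kcnd1, which encodes Kv4.1, had 1163 counts and a level of 43.3 ± 3.15 CPM for WT, 45.4 ± 2.66 for KI/+ and 47.2 ± 5.30 for KI/KI mice (SD, n = 3 each). Its log2 fold change in KI/KI against WT was 0.13 (FDR 0.776 from edgeR).

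The relatives of the partner proteins were described in the same way. Of 9 neuronal calcium sensors related to the KChIPs, 4 passed the filter, namely Ncald (847 CPM), Guca1b (69.1 CPM), Ncs1 (55.0 CPM) and Hpca (2.98 CPM). None of them was called, and Guca1b had the smallest FDR, 0.270, at -0.37 on the log2 scale for KI/KI against KI/+. Of 7 dipeptidyl peptidase relatives of Dpp6 and Dpp10, 3 passed the filter, namely Dpp7 (698 CPM), Dpp8 (303 CPM) and Fap (4.80 CPM), and 0 were called. The median log2 fold change in KI/KI against WT was -0.09 for the calcium sensors and -0.04 for the peptidases.

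Over the 9 libraries, the genes whose log2 CPM followed that of Kcnd2 most closely were Zfp518a (Pearson r = 0.96), Sphkap, an anchoring protein of protein kinase A (r = 0.96), and Gm42696 (r = 0.95). Those closest to Kcnd3 were Gm48128 (r = 0.93), Gm4129 (r = 0.92) and Nicn1 (r = 0.92). Of these, Gm48128, Nicn1 and Zfp518a had 107, 120 and 93 counts in all, as few as Kcnd3. The points share the libraries that stood apart, and the values are a description over 10842 genes, with no test.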

How the data were processed

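The data were RNA-sequencing counts of Purkinje-enriched cerebellar tissue of 9 female mice, 3 of each genotype. Reads were aligned and assigned to genes by the authors with Rsubread, and the deposited values were raw counts for each gene. Each of the 9 columns was used. GENCODE vM21 paired 52029 of the 56953 identifiers with a symbol.

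After TMM normalization, edgeR 4.0.16 (R 4.3.3) was used for quasi-likelihood tests in 1 fit of all libraries, on 10842 genes above its filter at a minimum count of 10. Calls needed a fold-change above 1.3 with an FDR below 0.2 (Benjamini-Hochberg). Standard errors and 95% intervals were derived from the F statistic. The fits were tested on simulated counts with known changes. Alternatives were DESeq2 1.42.0, RLE normalization, no filter, the replicate number as a block, the L1 libraries alone, thinned counts and each library left out. P-values of the fit without the block measure the spread between mice within genotypes, which includes the difference of the replicate 1 libraries shared by the genotypes.

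The 8 genes, the lists and the tests were chosen with earlier results of these data known. All 8 genes are named, with the neighbours of Kcnd3 on the chromosome and the 3 genes most correlated with Kcnd2 and Kcnd3. The most abundant genes are named for the Purkinje list and the lists of related genes, and any called gene for every list. For the other cell type lists only some members are named.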

Additional observations from a re-analysis of the deposited data

How the results depend on the processing

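Over 532 values of the 8 genes under alternative settings, 485 kept their direction and side of the criteria, 46 changed sign, and 1 passed the criteria that had not. That call was Kcnip4 in KI/KI against WT without WT replicate 1, so that the number of genes called ranged from 0 to 1 with each library left out.
The replicate numbers were shared by the genotypes, but same-numbered libraries did not deviate together in every pair: r lay between -0.02 and 0.24 over 9 pairs and was over 0.1 in 5, against -0.25 to 0.14 and 2 of 18 for pairs with other numbers. The pairs of replicate 1 libraries were among those over 0.1. With the replicate block, the genes called numbered 285 for KI/KI against WT, 164 for KI/KI against KI/+, 0 for KI/+ against WT and 258 for the trend, instead of 144, 42, 0 and 128, and none of the 8. With the block the log2 fold change was 0.25 for Kcnd2 in KI/KI against WT (FDR 0.146) and -0.44 for Kcnd3. With it, Kcnd2 in both comparisons of KI/KI mice and in the trend, and Kcnip3 in KI/+ against WT, had an unadjusted p under 0.05. So had 1289, 1248, 587 and 1224 of the 10842 genes with the block, in the order of the calls above. In edgeR without the filter Kcnd2 had an FDR of 0.0388 in KI/KI against WT, with a fold-change under 1.3. Its standard error was 0.069 in that fit instead of 0.132, and 1679 of 30626 genes had an unadjusted p under 0.05. The percentage of all genes called ranged over all settings from 0.184 to 2.91, 0.0738 to 1.51, 0 to 0.406 and 0.111 to 2.77.
With each library left out, values that changed sign ranged as follows, on the log2 scale. In KI/KI against WT they were -0.80 to 0.14 for Kcnd3, -0.022 to 0.128 for Kcnip1, -0.157 to 0.020 for Kcnip2 and -0.54 to 0.48 for Dpp6. In KI/KI against KI/+ they were -0.064 to 0.328 for Kcnip2, -0.169 to 0.0041 for Kcnip3, -0.370 to 0.090 for Kcnip4, -0.35 to 0.15 for Dpp6 and -0.12 to 1.40 for Dpp10. In KI/+ against WT they were -0.071 to 0.205 for Kcnd2, -0.58 to 0.37 for Kcnd3, -0.40 to 0.62 for Dpp6 and -0.84 to 1.00 for Dpp10. In the trend they were -0.787 to 0.061 for Kcnd3, -0.052 to 0.140 for Kcnip1, -0.142 to 0.018 for Kcnip2 and -0.53 to 0.35 for Dpp6.
With counts thinned to the smallest total in 1 draw, Dpp6 was at 0.24, 0.029, 0.21 and 0.24 and Dpp10 at -0.36, -0.035, -0.33 and -0.37 in the same order of comparisons, and Kcnip4 at 0.16 in KI/KI against KI/+. Without the replicate 1 libraries, a setting chosen after seeing the data, Kcnip2 was at 0.017 in KI/KI against WT and 0.019 in the trend, Dpp6 at 0.27, 0.44 and 0.24 in KI/KI against WT, KI/+ against WT and the trend, and Kcnd3 at 0.36 in KI/+ against WT. The cause of these changes was not tested. Where DESeq2 gave no FDR, its values were compared by direction alone. Each value of Dpp10 comes from fits without the filter. The limits are 3 mice per genotype, the counts of Kcnd3, Kcnip4, Dpp6 and Dpp10, and the unknown annotation.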
